A study of Mus musculus with 15 samples.

Results

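The late phase of mRNA decay was taken as the change between 110 and 230 min in the time courses of C2C12 myoblasts treated with actinomycin D. All 3 arrays titled 110 min and all 3 titled 230 min were used, which is 6 of the 15 arrays of the series. The arrays were paired by replicate number. The features compared were the 12544 of 25175 probe sets that lay above the median of their array at 0 min in at least 2 of the 3 replicates, and they covered 9879 genes.

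C2C12 cells are a mouse myoblast line: they divide in serum and, once serum is withdrawn, fuse into myotubes. The cells carried the empty LKO1 lentiviral vector, were grown in puromycin and serum, and were kept sparse so that they did not differentiate. All of them had been in 8 µg/mL actinomycin D for 30 min at the time point called 0 min, and the last 2 time points, 110 and 230 min, are those described here. No culture without the drug was used, so 230 min was compared only with earlier times in the drug. From each sample 300 ng of total RNA went onto 1 Affymetrix Mouse Gene 1.0 ST array. The time course was run in triplicate, but neither the labels nor the study's methods call the 3 replicates separate cultures, so the p-values measure the spread between arrays, which may be technical, and the number of arrays limits the precision.

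Actinomycin D binds DNA and blocks RNA polymerases, so a transcript present when the drug acts can only persist or be degraded. Most mRNAs are degraded by removal of the poly(A) tail, followed by decapping and digestion from the 5′ end or by digestion from the 3′ end by the exosome. Short-lived mRNAs typically encode regulators such as transcription factors and cell cycle proteins, and long-lived mRNAs encode metabolic enzymes and structural proteins.

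The authors divided every probe set by the 5th percentile of its array, so a deposited ratio of 1 marks the dim end of the array and carries no absolute amount of RNA. In a bulk sample, fewer cells of a type and less RNA per cell cannot be told apart. Of 10 myoblast markers 9 were above the level filter, among them Des, Cdh15 and Myod1, against 5 of 21 markers of fibroblasts, adipocytes, leukocytes and endothelial cells. The 5 were Col3a1, Pdgfra, Pparg, Lpl and Cd68, and none of them passed the test of the late change.

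The level of the arrays did not fall evenly in the late interval. The median ratio of the expressed probe sets at 110 min was 3.91 in replicate 1, 4.78 in replicate 2 and 5.49 in replicate 3, and at 230 min it was 4.65, 2.89 and 4.0. Replicate 1 therefore rose while replicates 2 and 3 fell. At 110 min replicate 1 was the lowest array and at 230 min replicate 2 was. Each of these lowest arrays was left out in turn in further fits. The median log2 change per replicate was 0.29, -0.64 and -0.35, with a mean of -0.24 ± 0.48 (SD, n = 3). An exact two-sided sign-flip permutation test gave p = 0.5, and the smallest p that 3 pairs allow is 0.25. The median change over the late interval was not distinguishable from 0 in these arrays. Between 50 and 110 min it was below 0 in every replicate, at -0.85, -0.56 and -0.44.

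**Figure D1:**
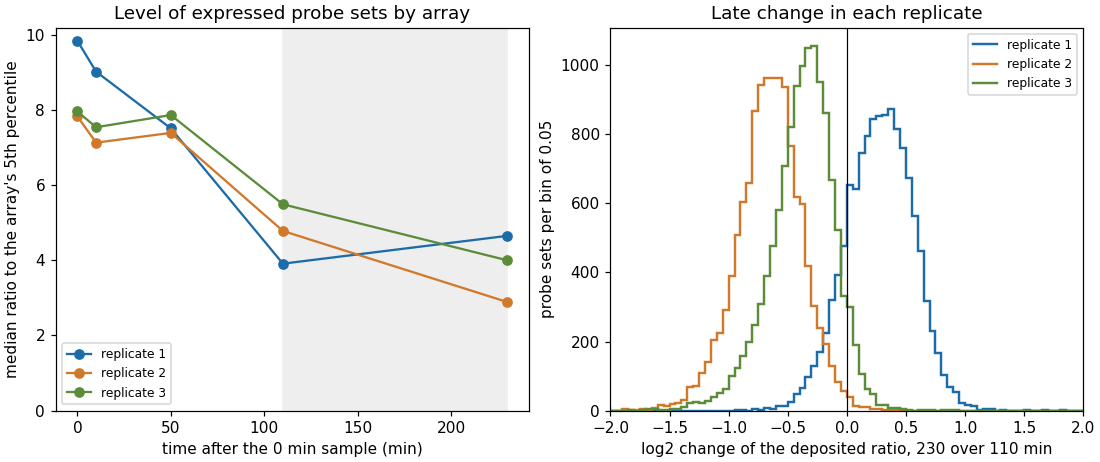
The left panel plots the median deposited ratio of the 12544 expressed probe sets (y axis) by time in minutes (x axis) for each replicate, with the late interval shaded. The right panel counts probe sets (y axis) by their log2 change of the deposited ratio from 110 to 230 min (x axis, bins of 0.05). Replicate 1 moved up, by a median of 0.29, and replicates 2 and 3 moved down, by 0.64 and 0.35.

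Single probe sets showed the same split. In replicate 1 only 2001 of the 12544 probe sets had a lower ratio at 230 than at 110 min, against 12456 in replicate 2 and 11773 in replicate 3. A fall in all 3 replicates was seen for 1907 probe sets and a rise in all 3 for 6. For 1367 probe sets (10.9%) every 230 min ratio lay under every 110 min ratio, and for 1 (0.00797%), that of Zscan21, every 230 min ratio lay above, at 1.34 to 1.38 against 1.29 to 1.31.

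The late change was tested on the deposited scale first. With limma on all 15 arrays and the replicate as a block, 266 probe sets (2.12%) were lower at 230 min and 0 (0%) were higher at an adjusted p under 0.05. At an unadjusted p under 0.05 the counts were 2024 and 0. Division of each array by its 75th percentile changed this split to 138 lower and 21 higher, and shifted the median of the probe sets from -0.23 to 0.08. The count of falls also rested on single arrays. With the 110 min array of replicate 1 left out it was 5082, and with the 230 min array of replicate 2 left out it was 48. The fitted SE on the deposited scale was nearly the same for the genes named below, for example 0.21 for Trpc1 and 0.23 for Xlr. Probe sets share the shifts of their array, but the fit treats them as independent. The p-values on the deposited scale may therefore be too small.

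Because the arrays moved in different directions, genes were also compared by rank within their array. Each probe set took the mean value of its rank over the 15 arrays, so that every array had the same distribution and falls and rises balance by construction. A change on this rank-matched scale is a change relative to the other expressed transcripts. A rise on it therefore means a slower loss than most, or a gain, and these cannot be told apart. On this scale 350 probe sets (2.79%) were lower at 230 min and 66 (0.526%) were higher. All 350 fell and all 66 rose in each of the 3 replicates.

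The rank-matched changes of the replicates were positively but modestly correlated, while their median levels moved in different directions. Across the expressed probe sets the correlation of the rank-matched change was 0.36 between replicates 1 and 2, 0.34 between 1 and 3 and 0.25 between 2 and 3. These values are across probe sets, which are not independent replicates. Of the 350 falls, 294 had a lower deposited ratio in all 3 replicates and 218 also passed on the deposited scale. Of the 66 rises, 2 had a higher deposited ratio in all 3 replicates, those of Glipr2 and Prrg4. Without the 110 min array of replicate 1 the counts were 153 and 12, without the 230 min array of replicate 2 they were 145 and 7, and without replicate 1 as a whole 0 and 0 passed, with 940 and 655 at an unadjusted p under 0.05. The direction of all 350 and of all 66 was kept in each of these fits. Since each had moved the same way in every replicate, leaving out replicate 1 as a whole could not change it.

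At the level of genes, 282 of 9879 (2.85%) fell and 49 (0.496%) rose. The median falling gene moved from the percentile 56.7 of its array at 110 min to 43.5 at 230 min, and the median rising gene from 33.7 to 45.5. The fitted falls ran from 0.32 to 1.24 log2 units in size, with a median change of -0.49, and the rises from 0.31 to 0.68, with a median of 0.42. None of the 71 expressed probe sets with a mean ratio under 1.5 at 110 min passed in either direction.

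Sqle, the squalene epoxidase of cholesterol synthesis, had the largest fall. Its ratios in replicates 1, 2 and 3 were 11.7, 18.0 and 17.6 at 110 min and 6.14, 3.57 and 6.79 at 230 min. All 230 min arrays lay under all 110 min arrays, and its percentile within the array went from 82.6 to 61.3. The rank-matched change was -1.24 ± 0.14 (SE, adjusted p = 0.00135), and the deposited change was -1.55 ± 0.22 (SE, adjusted p = 1.29e-06). The deposited change was -0.93, -2.33 and -1.38 in replicates 1, 2 and 3. Its SE was close to that of other genes despite this spread, so the adjusted p on the deposited scale may be too small.

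H1f5, a replication-dependent linker histone, followed. Its ratios were 11.97, 12.7 and 27.3 at 110 min and 7.05, 3.48 and 8.83 at 230 min. The groups did not overlap, although replicate 3 was the highest at both times. The rank-matched change was -1.12 ± 0.18 (SE, adjusted p = 0.00529).

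Pitpnb, a phosphatidylinositol transfer protein, had ratios of 11.2, 13 and 18 at 110 min and of 7.33, 3.70 and 6.31 at 230 min. Again the groups were separate. Its rank-matched change was -1.0 ± 0.09 (SE), with the smallest adjusted p of the named genes on that scale (0.000169). Unlike Sqle and H1f5, which had already fallen from 0 to 50 min by 0.30 and 0.78 on the rank-matched scale, Pitpnb had a change of 0.10 in that period.

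Nup50, a nucleoporin of the nuclear basket, fell from 12.1, 9.72 and 14.3 to 7.0, 2.87 and 6.49. Its lowest 110 min array lay above its highest 230 min array, and the rank-matched change was -0.94 ± 0.11 (SE, adjusted p = 0.00135). The other genes among the 12 largest falls were Prcc, Zfp330, Wdr43, Kif20b, Mphosph10, Brix1, Msh6 and Smim3, with changes from -0.92 to -0.86. Kif20b is a mitotic kinesin and Msh6 a mismatch repair protein. Wdr43 and Mphosph10 are parts of the small subunit processome, which matures ribosomal RNA, and Brix1 acts in assembly of the large ribosomal subunit.

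**Figure D2:**
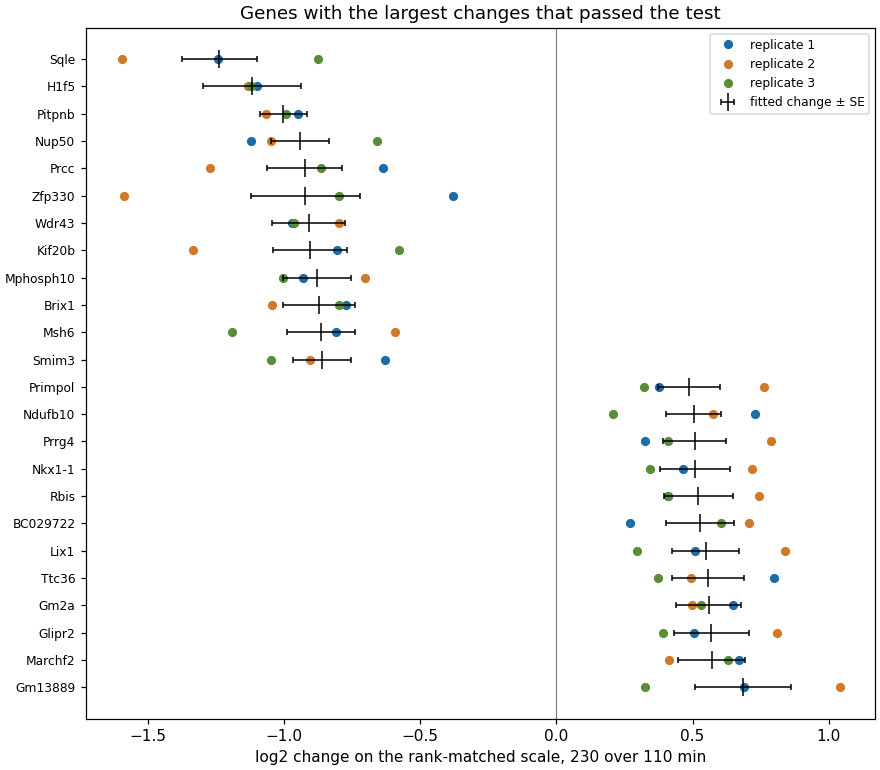
The plot gives the rank-matched log2 change from 110 to 230 min (x axis) for the 12 largest falls and the 12 largest rises among genes that passed the test (y axis). Coloured points are the 3 replicates, and black marks with bars are the fitted change ± SE. All 3 replicates of each gene lie on one side of 0, from -1.24 for Sqle at the top to 0.68 for Gm13889 at the bottom of the plot.

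By count, nucleolar factors of ribosome biogenesis gave the most falls of any list. Of 75 expressed members 11 (14.7%) passed as lower and 0 as higher, against 2.85% and 0.496% of all genes. Their median rank-matched change was -0.13 against 0.01. The replication-dependent histones had a larger share of falls, 22.2%. The nucleolar list's median was below 0 in each replicate, at -0.13, -0.20 and -0.11. On the deposited scale the list had a median of -0.39 against -0.24 for all genes, and 7 members passed. The 11 were Wdr43, Mphosph10, Gnl3, Nop56, Nop58, Tsr1, Nop2, Utp4, Utp15, Nop14 and Wdr75. The median stayed between -0.17 and -0.10 when a replicate or either of the lowest arrays at 110 and 230 min was left out. However, 0 members passed without replicate 1, 0 without replicate 3 and 6 without replicate 2. The count was also 6 without the 110 min array of replicate 1 and without the 230 min array of replicate 2.

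Wdr43 had ratios of 15.1, 9.25 and 19.03 at 110 min and of 10.1, 3.21 and 6.80 at 230 min. Each replicate fell, but the groups overlapped, since replicate 1 at 230 min lay above replicate 2 at 110 min. The rank-matched change was -0.91 ± 0.13 (SE, adjusted p = 0.00297).

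Mphosph10 showed the same arrangement, with ratios of 4.87, 2.97 and 6.21 followed by 3.03, 1.41 and 2.29. Its percentile fell from 46.9 to 21.4, and the rank-matched change was -0.88 ± 0.12 (SE, adjusted p = 0.00275). Gnl3, the nucleolar GTPase known as nucleostemin, fell from 7.85, 4.85 and 11.3 to 4.87, 2.25 and 4.04, with a rank-matched change of -0.78 ± 0.10 (SE, adjusted p = 0.00191). In all of these genes replicate 2 was the lowest array at both times.

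Nop56 and Nop58 are the paired core proteins of box C/D small nucleolar ribonucleoproteins, which methylate ribosomal RNA. Nop56 fell from 33.3, 20.9 and 50.3 to 30.9, 7.48 and 23.7, a rank-matched change of -0.67 ± 0.08 (SE, adjusted p = 0.00179). For Nop58 the ratios were 16.4, 14.4 and 28.4 and then 19.2, 5.13 and 13.04. The deposited ratio of Nop58 thus rose in replicate 1 and fell in the other two, while its rank-matched change was -0.55 ± 0.10 (SE, adjusted p = 0.01). Fbl, the methyltransferase of the same particle, did not pass, with a change of 0.08 ± 0.12 (SE, adjusted p = 0.78). Npm1 and Ncl, abundant nucleolar proteins, did not pass either, at -0.06 and -0.16.

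The ribosomal proteins, whose assembly these factors serve, were not among the falls. Of 56 expressed cytosolic ribosomal protein genes 0 passed in either direction, and their median rank-matched change was 0.07, with replicates at 0.07, 0.03 and 0.08. That median depended on the scaling: it was 0.29 with the array's median subtracted and 0.29 after division by the 75th percentile, against 0.07 for all genes in both, and 1 member passed as higher in each. Mitochondrial ribosomal proteins had 2 of 77 lower (2.6%, against 2.85% of all genes), Mrps31 (-0.50) and Mrpl35 (-0.42), and a median of 0.00. The difference between these lists and the nucleolar list was not tested.

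Nuclear-encoded genes of the respiratory chain had the highest median of the lists on the rank-matched scale. Of 74 expressed members 6 passed as higher and 0 as lower, against 0.496% of all genes higher, with a median rank-matched change of 0.17 against 0.01. In rank, 43 members were higher in all 3 replicates, against 2057 of all 9879 genes. The list's median was 0.15, 0.13 and 0.18 in replicates 1, 2 and 3. On the deposited scale the direction was the other one, with a median of -0.04, but all genes had -0.24 there and 0 members passed. Divided by the 75th percentile of the array the list had a median of 0.27 against 0.07 for all genes, with 6 higher. The cytosolic ribosomal proteins lay above it there, at 0.29, as they did on the deposited scale, at -0.02. No member passed as higher without replicate 1, 2 or 3, and 1 did without each of the arrays that stood apart. Without replicate 2 a single member, Ndufa12 of complex I, passed as lower, and it was named after its value was seen. The list's median stayed between 0.15 and 0.17 in these fits.

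Ndufb10, a subunit of complex I, had the largest rise of the list. Its ratios were 2.5, 3.17 and 3.89 at 110 min and 4.69, 2.75 and 3.37 at 230 min. The ratio rose in replicate 1 and fell in replicates 2 and 3, and the groups overlapped, but its percentile went from 32.4 to 47.1. The rank-matched change was 0.50 ± 0.10 (SE, adjusted p = 0.0157), and the deposited change was 0.17 ± 0.22 (SE, adjusted p = 0.674).

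The other 5 were Ndufb8 and Ndufs5 of complex I, Uqcr11 and Uqcrq of complex III, and Atp5e, the epsilon subunit of ATP synthase. Uqcr11 had ratios of 5.10, 5.28 and 7.57 and then of 9.67, 4.36 and 6.66, with a rank-matched change of 0.41 ± 0.09 (SE, adjusted p = 0.0191). Ndufb8 went from 5.74, 6.33 and 9.07 to 10.3, 5.97 and 7.86, with a change of 0.44 (adjusted p = 0.0315). In both, only replicate 1 rose in deposited ratio. The large catalytic subunit Atp5b did not pass, with a change of -0.08 ± 0.10 (SE, adjusted p = 0.705).

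**Figure D3:**
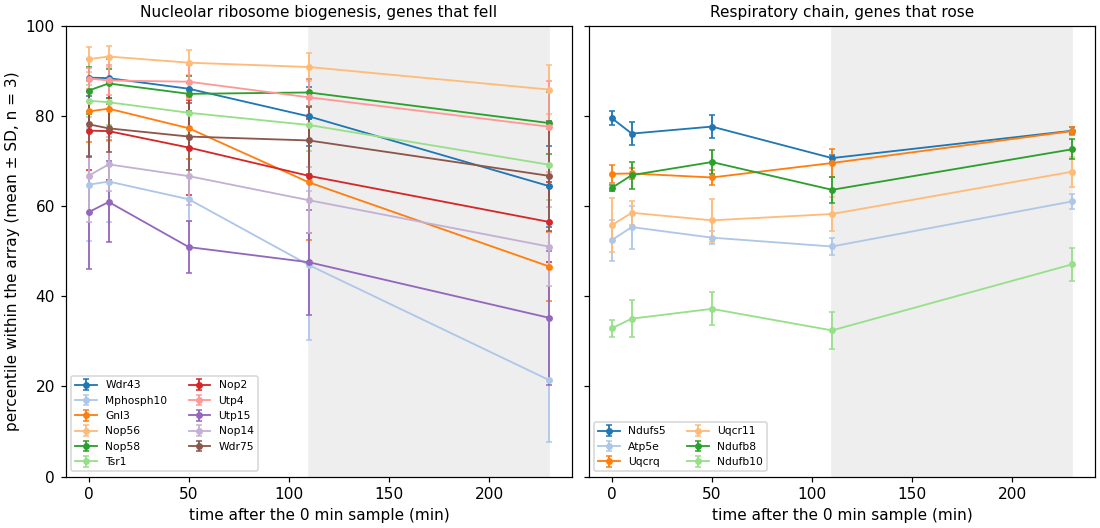
The plot shows the percentile of each gene among the expressed probe sets of its array (y axis, mean ± SD, n = 3) at 5 times in minutes (x axis), for the 11 nucleolar genes that fell (left) and the 6 respiratory chain genes that rose (right), with the late interval shaded. These genes were chosen for their late change. The nucleolar genes declined after 110 min, Mphosph10 from 46.9 to 21.4, and the respiratory chain genes climbed, Ndufb10 from 32.4 to 47.1.

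Genes of cell division fell in small numbers. Of 49 expressed genes of mitosis 4 (8.16%) fell and 0 rose, against 2.85% and 0.496% of all genes, with a median of -0.13 against 0.01. They were Plk1, the polo-like kinase of mitotic entry, Incenp, the scaffold of the chromosomal passenger complex, and the spindle kinesins Kif11 and Kif23. No member passed without replicate 1 or without replicate 3.

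Plk1 had ratios of 15.6, 15.7 and 25.3 at 110 min and of 12.7, 4.79 and 11.8 at 230 min. The groups did not overlap, and the rank-matched change was -0.78 ± 0.11 (SE, adjusted p = 0.00221). Incenp fell from 6.44, 5.88 and 8.79 to 4.88, 2.52 and 3.70, also without overlap, by -0.64 ± 0.09 (SE, adjusted p = 0.00252). The proliferation marker Mki67 did not pass, at -0.16 ± 0.11 (SE, adjusted p = 0.503).

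In DNA replication and nucleotide supply 3 of 50 (6.0%) fell, Cdt1, Rfc3 and Pold3, against 2.85% of all genes, and the median was -0.05. Without replicate 1 or without replicate 3 no member passed, and without replicate 2 there was 1 and the median was 0.00. Cdt1, which licenses replication origins and is degraded in S phase as a protein, had ratios of 4.62, 4.25 and 7.49 and then of 2.74, 1.87 and 2.77. The groups were separate, and the rank-matched change was -0.85 ± 0.09 (SE, adjusted p = 0.00135). Pcna and Mcm5 lay near 0, at -0.02 and -0.07.

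Replication-dependent histones, whose mRNAs end in a stem-loop in place of a poly(A) tail, had 4 of 18 lower and a median of -0.19. The share of falls was 22.2%, against 2.85% of all genes. The replicates differed, at -0.19, -0.08 and -0.56. Without replicate 1 the count was 0, without replicate 2 it was 2 and without replicate 3 it was 1. The genes were H1f5, H4c6, H1f1 and H4c14. Histone genes of a class are near copies of one another and a probe set can bind several, so the single genes are uncertain. H4c6 fell from 6.87, 4.99 and 12 to 5.09, 2.51 and 3.96, and its groups overlapped by a narrow margin. Slbp, which binds that stem-loop, also fell, with a change of -0.46 ± 0.11 (SE, adjusted p = 0.0374).

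Among 77 chromatin regulators 4 (5.19%) fell and 0 rose, against 2.85% and 0.496% of all genes, and the median was -0.11 with replicates at -0.13, -0.12 and -0.13. They were Chd8, a chromatin remodeler, Kat7, a histone acetyltransferase, Ezh2, the methyltransferase of polycomb complex PRC2, and Kdm3a, a histone demethylase. Chd8 had ratios of 4.5, 5.5 and 6.14 and then of 3.97, 2.03 and 3.11, without overlap, and a rank-matched change of -0.59 ± 0.10 (SE, adjusted p = 0.00607). Without replicate 1 or without replicate 3 no member passed, and without replicate 2 there was 1.

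Transcription factors had 2 of 63 lower, Myod1 and Nfe2l2, a share of 3.17% that was close to the 2.85% of all genes. Neither passed without replicate 1, without replicate 3 or without either of the lowest arrays at 110 and 230 min. Myod1, a helix-loop-helix factor that drives muscle commitment, had ratios of 7.90, 8.26 and 10.7 at 110 min and of 6.35, 2.85 and 5.33 at 230 min. All 230 min arrays were under all 110 min arrays, and the rank-matched change was -0.66 ± 0.14 (SE, adjusted p = 0.0232). It was the sole one of 9 myoblast markers to pass. Des, Vcam1 and Ncam1 had changes of 0.23, 0.18 and 0.18. Of the 16 expressed sarcomere and myotube genes 0 passed, and the median was 0.12. Myog, the factor of early differentiation, was close to the array floor, at 1.47, 1.97 and 1.74 and then 1.62, 1.48 and 1.89.

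Nfe2l2, the regulator of antioxidant genes, had a change of -0.54 ± 0.13 (SE, adjusted p = 0.0372). Gclc, the catalytic subunit of glutamate-cysteine ligase and one of its targets, fell by 0.57 on the rank-matched log2 scale (adjusted p = 0.0118), from 7.88, 7.39 and 10.9 to 6.50, 3.00 and 5.33. These were the 2 of 30 antioxidant and iron genes that passed, 6.67% against 2.85% of all genes.

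Of 44 immediate early and growth factor response genes 2 (4.55%) fell late, Id2 and Btg1, and 0 rose, against 2.85% and 0.496% of all genes. Their median rank-matched change was -0.63 from 0 to 50 min and -0.04 in the late interval. The median ratio of the list was 2.70 at 110 min and 2.19 at 230 min, against 4.54 and 3.66 for all genes. Many of its genes were thus low before the late interval, and the late median says little about whether their decay went on. Id2, an inhibitor of basic helix-loop-helix factors such as Myod1, went from 3.06, 2.97 and 5.71 to 2.44, 1.61 and 2.29. Its groups did not overlap, and the rank-matched change was -0.61 ± 0.10 (SE, adjusted p = 0.006). Btg1, an antiproliferative protein that binds the deadenylase complex, had -0.47 ± 0.10 (SE, adjusted p = 0.0191).

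Of Myc, Fbxo5, Rnd3, Jun and Smad7, which the study names, none passed in the late interval. Myc had ratios of 2.26, 2.25 and 3.66 at 110 min and of 2.13, 1.61 and 2.54 at 230 min, with a rank-matched change of -0.10 ± 0.16 (SE, adjusted p = 0.786). Fbxo5, an inhibitor of the anaphase-promoting complex, had -0.23 ± 0.11 (SE, adjusted p = 0.299) and Rnd3 had -0.17 ± 0.16 (SE, adjusted p = 0.637). Jun and Smad7 had 0.02 and 0.04. The mean ratio of Fbxo5 went from 2.18 to 1.61, that of Rnd3 from 2.63 to 1.93 and that of Smad7 from 2.13 to 1.84. Apart from Jun, these genes were thus already near the dim end of the arrays at 110 min. For them the test says little about whether decay went on. From 0 to 50 min the changes of Myc and Fbxo5 were -1.84 and -1.68. Igf1 was below the level filter.

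The feedback and stress lists held single genes that fell. Signalling feedback had 2.78% of its genes lower, the integrated stress response 3.33% and the endoplasmic reticulum list 5.66%. The share among all genes was 2.85%. Ankrd1, a transcript induced by YAP, was the 1 of 36 signalling feedback genes that passed, from 25.9, 24.4 and 18.1 to 19.4, 8.26 and 7.83, groups that overlapped, with a rank-matched change of -0.80 ± 0.13 (SE, adjusted p = 0.00629). Slc38a2, an amino acid transporter induced by the integrated stress response, was the 1 of 30 there, with ratios of 17.7, 28.5 and 27.2 and then of 16.1, 8.69 and 14.1 and a change of -0.67 ± 0.09 (SE, adjusted p = 0.00275). In the endoplasmic reticulum list 3 of 53 fell, Xbp1, the factor of the unfolded protein response, Herpud1, which acts in degradation of misfolded proteins, and Srp68 of the signal recognition particle. Xbp1 went from 4.29, 5.83 and 5.89 to 3.67, 2.52 and 2.51, without overlap (-0.58 ± 0.13, SE, adjusted p = 0.0232). Of the 22 expressed p53 targets 0 passed, and their median was -0.07.

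Of 61 genes of sterol and lipid metabolism 2 (3.28%) fell, against 2.85% of all genes. They were Sqle and Hmgcs1, both enzymes of the path to cholesterol. Hmgcs1 had ratios of 11.9, 27.4 and 24.8 and then of 11.2, 11.7 and 14.1. Its groups overlapped because replicate 1 was low at 110 min, and the rank-matched change was -0.45 ± 0.10 (SE, adjusted p = 0.0229). The median of the list was 0.04, and Srebf2, the transcription factor of the path, had a change of 0.03.

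RNA processing and protein turnover added a few genes each, and the lists' shares of falls lay between 2.94% and 5.48%, against 2.85% of all genes. Splicing factors had 3 of 69 lower, Srsf4, Rbm39 and Rbm5, with Srsf4 at -0.66 ± 0.13 (SE, adjusted p = 0.0118). The mRNA decay machinery had 2 of 68 (2.94%), close to the share of all genes, Cnot2 of the CCR4-NOT deadenylase and Exosc4 of the exosome. Cnot2 went from 3.41, 4.69 and 4.69 to 2.97, 2.07 and 2.60, without overlap, with a change of -0.47 ± 0.11 (SE, adjusted p = 0.0286). E3 ligases and ubiquitin conjugation had 4 of 73, Cul1, Trim32, Rnf4 and Fbxo28, led by the cullin scaffold Cul1 at -0.68 ± 0.11 (SE, adjusted p = 0.0045). The proteasome had 2 of 41, Psmd7 (-0.58) and Psmd5 (-0.38), and a median of 0.01.

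Lists of cell surface, metabolism and translation had at most 2 genes each. Their shares of falls were at most 4.0%, against 2.85% of all genes. The glucose transporter Slc2a1 was the 1 of 44 genes of glycolysis and related enzymes that passed, at -0.56 ± 0.12 (SE, adjusted p = 0.0191). Fgf7, a growth factor, was the 1 of 41 secreted factors, at -0.51 ± 0.12 (SE, adjusted p = 0.0351). Eif4enif1, which shuttles the cap-binding protein eIF4E, and Eif6, which keeps ribosomal subunits apart, were the 2 of 50 translation factors. The zinc transporter Slc39a7 was the 1 fall of 49 ion and solute transporters, and Hspb8 the 1 of 47 chaperones, with an adjusted p of 0.0496. The aminoacyl-tRNA synthetases, 20 genes, and the matrix genes, 52, had 0 in either direction, with medians of -0.08 and 0.05.

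**Figure D4:**
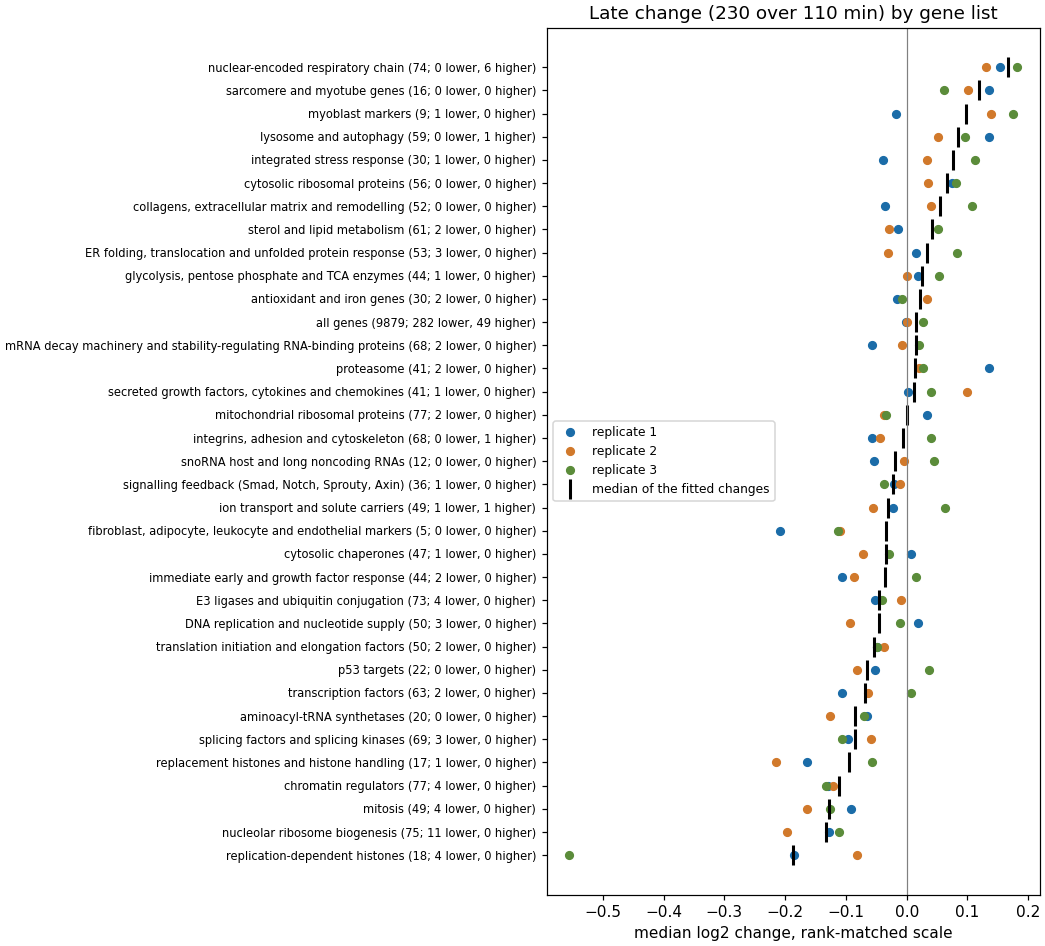
Each line is a gene list, with the number of expressed genes and of genes that passed the test as lower or higher, and the x axis is the median rank-matched log2 change from 110 to 230 min. Coloured points are the medians of the 3 replicates, and black ticks are the medians of the fitted changes. On this scale the respiratory chain lies highest, at 0.17, and the replication-dependent histones lowest, at -0.19, with all genes at 0.01.

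Most of the 49 genes that rose lay outside the respiratory chain list. Gm13889, a predicted gene, had the largest, from 1.74, 2.28 and 2.54 to 2.87, 2.59 and 2.43, close to the floor of the arrays, with a rank-matched change of 0.68 ± 0.18 (SE, adjusted p = 0.0492). Marchf2, a membrane-bound ubiquitin ligase, had 0.57 ± 0.12 (SE, adjusted p = 0.0232). Glipr2, a Golgi-associated protein, had higher levels, at 6.68, 9.58 and 11.6 and then 12.8, 9.77 and 11.7. Its deposited ratio rose in all 3 replicates, and the change was 0.57 ± 0.14 on the rank-matched scale (SE, adjusted p = 0.0388) and 0.33 ± 0.22 on the deposited scale (SE, adjusted p = 0.446).

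Gm2a, the activator protein of ganglioside breakdown in the lysosome, rose in rank by 0.56 ± 0.12 (SE, adjusted p = 0.0223), from the percentile 12.5 to 29.4. Lamp1, a major protein of the lysosomal membrane, was the 1 of 59 lysosome and autophagy genes that passed (1.69%, against 0.496% of all genes higher). Its ratios were 24.7, 30.4 and 36.9 and then 45.9, 25.7 and 39.1, so that replicates 1 and 3 rose and replicate 2 fell, with a rank-matched change of 0.38 ± 0.08 (SE, adjusted p = 0.0202). The median of that list was 0.08. Tpm2, a tropomyosin, and Trpc1, a cation channel, rose by 0.33 and 0.31 on the rank-matched scale. In both the deposited ratio fell in replicate 2. Trpc1 lay close to the floor of the arrays, with a mean ratio of 1.85 at 110 min and 1.83 at 230 min. The other genes among the 12 largest rises were Ttc36, Lix1, BC029722, Rbis, Nkx1-1, Prrg4 and Primpol, from 0.49 to 0.56. In each of these the mean ratio at 110 min was under 3.

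On the deposited scale no gene rose past the threshold. The 5 with the smallest p were Prps1, Snf8, Xlr, Glipr2 and Gm13889. Prps1, which makes the ribose phosphate of nucleotides, had ratios of 16.4, 12.9 and 20.8 and then of 24.2, 12.6 and 24.7, with a deposited change of 0.26 ± 0.22 (SE, adjusted p = 0.531). Replicate 2 did not rise in it.

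Genes that had fallen in rank early tended to go on falling late. The 9879 genes were put into deciles by their rank-matched change from 0 to 50 min. The late change compares the 110 and 230 min arrays, but the fit and the rank-matched scale used all 15 arrays. In the decile with the largest early falls the median late change was -0.12, with replicates at -0.16, -0.09 and -0.12, and in the decile with the largest early rises it was 0.10, with replicates at 0.11, 0.06 and 0.13. Of 988 genes, 117 (11.8%) fell and 1 (0.101%) rose in the first decile, while 5 (0.506%) fell and 11 (1.11%) rose in the last. The shares among all genes were 2.85% and 0.496%. The early change averaged over the 3 replicates was correlated across genes with the late change of each replicate. The correlation was 0.30, 0.17 and 0.28 for the late change of replicates 1, 2 and 3. The points share arrays and genes are not replicates, so no test was made.

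Seen from the late genes, 243 of the 282 that fell had also moved down from 0 to 50 min, with a median early change of -0.19, against 4395 of all 9879. Of the 49 that rose, 8 had moved down early, and the median early change was 0.11. Psmd7, a proteasome lid subunit, was among the exceptions, with an early change of 0.27 and a late one of -0.58. Falls were also rare at the bottom of the range. In the decile of genes with the lowest level at 50 min, 1 (0.101%) fell and 5 (0.506%) rose late. Its median ratio at 110 min was 1.9, which leaves little room for a fall. In decile 8 of that order, the one with the most falls, 56 (5.67%) fell and 2 (0.202%) rose. The shares among all genes were 2.85% and 0.496%, so the rises in the lowest decile were near that of all genes.

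**Figure D5:**
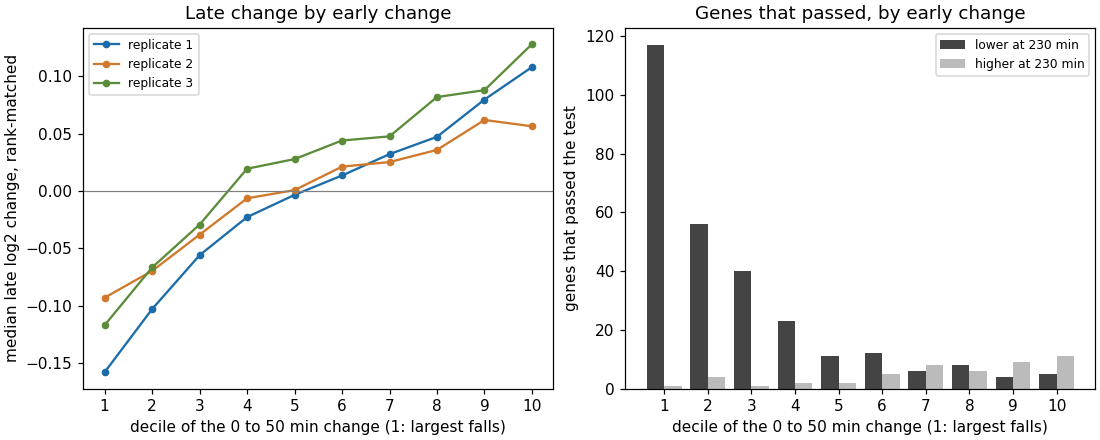
The left panel gives the median rank-matched log2 change from 110 to 230 min (y axis) for deciles of the change from 0 to 50 min (x axis, 1 for the largest falls), with 1 line per replicate. The right panel counts the genes in each decile that passed the late test as lower or higher. The medians climb from -0.12 in the first decile to 0.10 in the last, and the falls drop from 117 to 5 genes.

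The late change per hour was then compared with that between 50 and 110 min on the rank-matched scale. These intervals share the 110 min arrays, so a high or low array at 110 min moves both in opposite directions. The rate was more negative late for 24 probe sets (0.191%) and less negative or more positive for 73 (0.582%). Among these were 62 genes at the gene level, 13 and 49. All 13 had risen in rank between 50 and 110 min and all 49 had fallen. The genes were picked by the difference between the rates, which favours these directions, so this is no separate result. Of the 49, 42 had also fallen from 0 to 50 min, against 4395 of all 9879 genes. Without replicate 1 the counts were 0 and 0, with 544 and 705 at an unadjusted p under 0.05, without replicate 2 they were 9 and 4, and without replicate 3 they were 0 and 12.

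Among the 49 was Cited2, a transcriptional coregulator, which changed by -1.39 per hr between 50 and 110 min and by -0.39 per hr afterwards, a difference of 0.99 ± 0.13 (SE, log2 per hr, adjusted p = 0.00898). For Id2 the rates were -1.31 and -0.31 per hr (adjusted p = 0.00898). Mcl1, a short-lived survival protein of the BCL2 family, had -0.91 and -0.11 per hr, and Wee1, the kinase that restrains CDK1, -0.97 and -0.09 per hr. By 230 min the mean ratio of Wee1 was 2.41, from 20.2 at 0 min. Some of the 49 were near the dim end of the arrays at 110 min, where a ratio can hardly fall further. The mean ratio at 110 min was 1.10 for Trim13, 1.48 for Bhlhe40 and 1.80 for Irf1, against 11.1 for Cited2. For such dim genes a less negative late rate says little about whether decay slowed.

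Malat1, a noncoding RNA that stays in the nucleus, was among the 13 with a more negative late rate. It had mean ratios of 109, 111, 111 and 86.3 at 0, 50, 110 and 230 min. Its rank-matched rate was 0.48 per hr between 50 and 110 min and -0.13 per hr afterwards (adjusted p = 0.0399). Col5a2 and Col5a3, chains of type V collagen, had differences of -0.70 and -0.50 log2 per hr, and Mt2, a metallothionein, -0.66. Of the 13, 1 also passed as lower in the late interval alone, Kyat1, a kynurenine aminotransferase, with a change of -0.40 (adjusted p = 0.0302).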

How the data were processed

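Biotinylated cDNA from 15 RNA samples (5 times in 3 replicates) was hybridized to Affymetrix Mouse Gene 1.0 ST arrays. The deposited values are linear ratios to the array's 5th percentile, a division made by the authors. How probes were summarised and background removed, and with which software, is not given in the sources used here. No p-values of detection came with the values. Of 25175 probe sets, 21044 had 1 symbol in the platform annotation, 1492 several and 2639 none. Probe sets with 1 symbol were named, through gene numbers of GRCm38.p6 where these matched (20959). A gene with several expressed probe sets was represented by the one with the highest mean at 0 min.

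Log2 ratios of all 15 arrays were fitted with limma 3.58.1 in R 4.3.3 (lmFit, eBayes), with time and the replicate as a block, and Benjamini-Hochberg adjustment over 12544 probe sets at 0.05, on the deposited scale and after quantile normalization over the expressed probe sets (the rank-matched scale). The replicate numbers mark time courses: 29 of 30 same-numbered pairs of arrays had deviations that correlated over 0.1 (median 0.362), against 14 of 60 other pairs (median -0.216). The code was tested on simulated data.

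The interval, the 34 gene lists, the tests and the rule for named genes were chosen with earlier results of these data known. Named were the 12 largest falls and rises on the rank-matched scale that passed with 1 direction in all 3 replicates, the largest in each direction of every list with at least 10 expressed genes, the 5 largest on the deposited scale (for rises, those with the smallest p), and Myc, Fbxo5, Jun, Smad7, Rnd3, Myod1 and Igf1. Other genes were named after their values were seen, for their role or to account for a count. Lists were described by counts and medians without a test. Alternatives covered the block, arrays fitted, scaling, level filter, background, variance model and replicates, and 5 were added after the data were seen. No sequences were analysed.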

Additional observations from a re-analysis of the deposited data

Results flagged for a closer look

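The genes below were singled out because the test of the difference itself showed a change per hour from 110 to 230 min unlike that from 50 to 110 min on the rank-matched scale. They are the 5 largest differences in each direction, in log2 per hr, and both intervals use the 110 min arrays.

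The late rate was more negative for Usp17ld (-2.91), AY036118 (-1.95), Aldh3b3 (-1.16), Slitrk5 (-1.10) and 1700084E18Rik (-0.779). Usp17ld, a deubiquitinase of a multicopy family, had ratios of 17.5, 7.84 and 7.41 at 50 min, 46.8, 24.4 and 64.6 at 110 min and 25.5, 31.3 and 20.4 at 230 min, so that all 3 replicates rose to 110 min under the drug and replicate 2 went on rising. AY036118 had 43.2, 18.0 and 46.1 at 110 min, where replicates 1 and 3 stood apart from replicate 2.

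The late rate was less negative or more positive for Olfr767 (1.5), Xlr (1.25), H2bc14 (1.2), H1f1 (1.2) and Nup62 (1.13). The mean ratio of Nup62, a nucleoporin of the central channel, was 27.1 at 0 min, 17.3 at 50 min, 3.74 at 110 min and 1.94 at 230 min. For the linker histone H1f1 it was 75.6, 39.9, 8.83 and 4.52 at the same times. Olfr767 belongs to a large family of similar olfactory receptor genes and Xlr to an X-linked multicopy family. The mean ratio of Olfr767 was 1.63 at 110 min and 1.77 at 230 min, near the dim end of the arrays.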

How the results depend on the processing

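The replicate block, scaling and single replicates moved the counts most, and the cause was not tested. With no replicate block the counts lower and higher were 1 and 0 on the deposited scale and 60 and 0 on the rank-matched scale (521 higher at an unadjusted p under 0.05), and the rate comparison had 0 and 0 (435 and 566 unadjusted). On the deposited scale the count lower was 3 with only the 6 late arrays, 21 with arrays divided by their median, 3 with no level filter, and 138 with 21 higher after division by the 75th percentile. Subtraction of the 5th percentile gave 1107 and 1. It ranged from 1 to 6038 with a replicate left out, with 5082 when the 110 min array of replicate 1 alone was dropped and 48 when the 230 min array of replicate 2 was. On the rank-matched scale the counts were 96 and 3 with the 6 arrays, 130 and 21 with the array's median subtracted, 173 and 7 with the 9 arrays at 50, 110 and 230 min, 153 and 12 without the 110 min array of replicate 1, and 145 and 7 without the 230 min array of replicate 2. They ranged from 0 to 126 and from 0 to 10 with a replicate left out. Of the 350 falls 308 also passed with percentile ranks and 304 with no level filter. The rate comparison gave 4 and 685 on the deposited scale and 15 and 43 with no level filter, and from 0 to 9 and from 0 to 12 with a replicate left out. The overall shift of -0.24 became 0.0703 with division by the 75th percentile. Of 760 values of 55 named genes under the alternatives, 462 kept their direction and side of the threshold, 292 no longer passed, 2 newly passed and 4 reversed, which were Jun (-0.0075 with the median subtracted, -0.14 to 0.151 with a replicate left out and -0.118 without the 110 min array of replicate 1) and Smad7 (-0.0694 to 0.0924 with a replicate left out).

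Without detection p-values the signal over background is unknown.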
